A study of Mus musculus with 6 samples.

Results

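Integrins are cell-surface receptors made of one alpha and one beta chain, and the 10 genes described here encode the αv chain, the beta chains that can pair with it, and the alpha and beta chains by which epithelial cells hold on to laminin and collagen. They were taken by gene symbol from a raw count table of 55450 mouse genes annotated with GENCODE mouse release 21 on GRCm38, and are Itgav, Itgb1, Itgb3, Itgb5, Itgb6, Itgb8, Itga3, Itga6, Itgb4 and Itga2. The rule used their symbols, and the set was proposed with earlier results of these data known.

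Kidney mRNA was sequenced in a mouse model of hyperuricemia-related chronic kidney disease (CKD), in which a purine load and a uricase inhibitor are given together. All 6 animals were male wild type C57BL/6J mice, bought at 7 weeks of age and acclimatised for 1 week. The day-0 group, the control, had 3 mice with the treatment label 20% PEG, and the day-21 group had 3 mice given adenine at 0.16 g/kg and potassium oxonate at 2.4 g/kg by gavage daily for 21 days. Day 0 is the study's name for its control, and the labels give no sampling day for these mice, so a difference in age or vehicle between the groups cannot be told apart from the treatment. Whole kidney tissue was used, so a lower value can come from fewer cells of a type or from less RNA per cell, which cannot be told apart.

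The αv chain forms receptors that read the Arg-Gly-Asp (RGD) motif of fibronectin, osteopontin and vitronectin. The αvβ6 and αvβ8 receptors are best known for binding the RGD motif in the latency peptide of transforming growth factor-β (TGF-β), a step by which the latent cytokine is made active. The laminin receptors α3β1 and α6β1 anchor tubular and glomerular epithelium to the basement membrane, whereas α6β4 builds hemidesmosomes, the stable anchors of epidermis and urothelium.

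The libraries held 10963849 to 14333311 counts, so that 3 counts, the floor used for genes near 0, correspond to 0.179 to 0.309 CPM (counts scaled to a common library size). Of 16592 genes that passed the filter on low counts, 3249 were higher and 2572 lower on day 21. A differentially expressed gene (DEG) is here one that differed more than 1.5-fold with an adjusted p (Benjamini-Hochberg, edgeR's quasi-likelihood test) under 0.05, and this rule called 35.1% of the genes tested, 19.6% higher and 15.5% lower. Scaling by library size alone in place of TMM (trimmed mean of M-values) gave 5985 higher and 1338 lower, and took the median over all genes tested from 0.03 to 0.42 on the log2 scale. All 6 proximal tubule markers listed were lower on day 21, with summed levels of 9267 to 10113 CPM in the controls and 1784 to 2213 CPM after treatment. All 8 markers of injured tubule were higher, with sums of 230 to 309 and 2653 to 2860 CPM.

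All 10 integrin genes passed the filter. On day 21 the laminin receptor chain Itgb4 rose 3.15-fold, Itgb5 and Itgb1 each rose 1.57-fold, and Itgb8 fell 2.36-fold. The other 6 were not DEGs. The 3 higher and 1 lower of 10 stood beside 19.6% and 15.5% of all genes tested. Without the fold threshold, 6 of the 10 had an adjusted p under 0.05 in edgeR's quasi-likelihood test, beside 45.6% of all genes. The values of the 3 day-21 mice lay above those of the 3 day-0 mice for 6 members and below them for 1, and the background shares of genes whose groups did not overlap were 30.7% and 26.4%. The median log2 fold change was 0.44 over the 10 members and 0.03 over all genes tested.

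**Figure D1:**
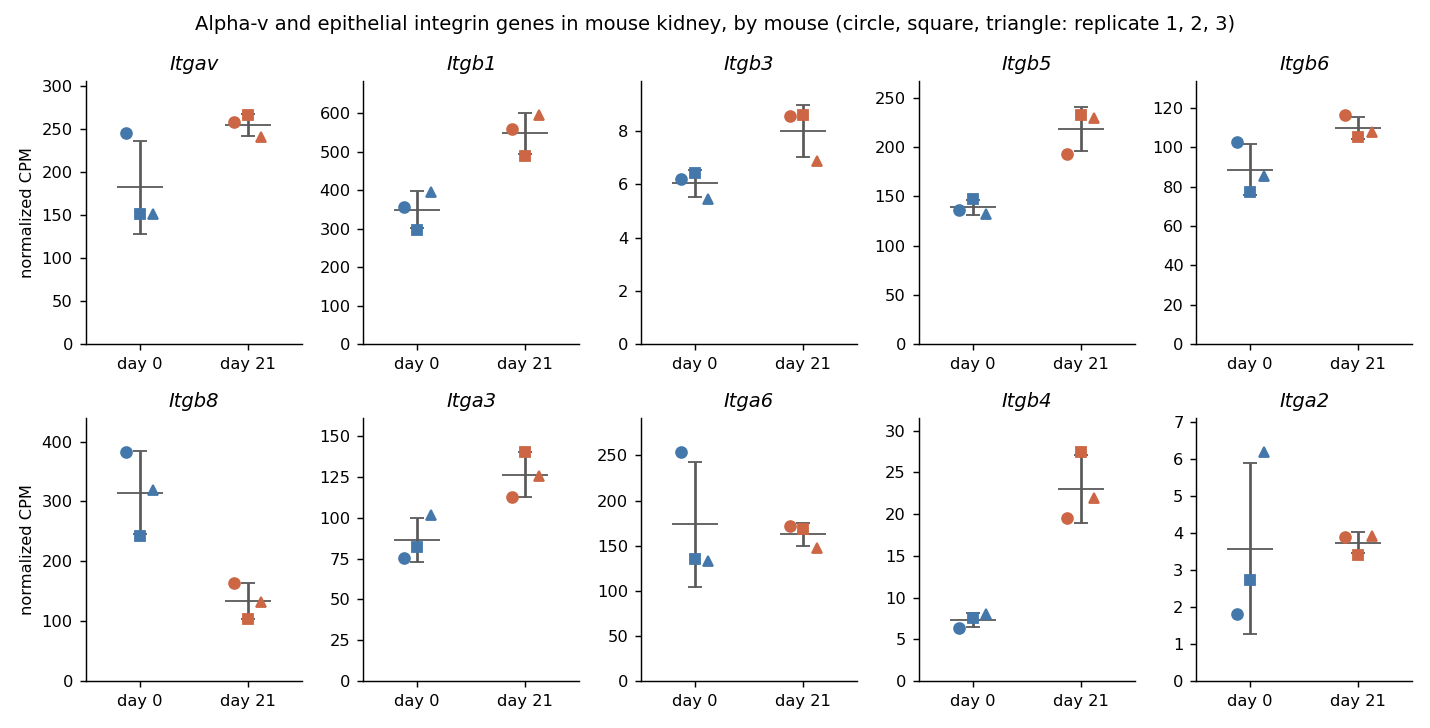
TMM-normalized CPM (y axis, from 0, a separate scale in each panel) of the 10 integrin genes in each of the 3 day-0 mice (blue) and 3 day-21 mice (orange), with the group mean and SD as lines. Itgb4 and Itgb8 show the widest gaps between groups, and the day-0 mouse drawn as a circle stands apart in Itgav and Itga6.

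Itgav lies at chr2:83724397-83806916 on the plus strand of GRCm38 and encodes the only alpha chain shared by all the αv receptors. It had 245, 151 and 151 CPM in day-0 replicates 1 to 3, and 257, 266 and 241 CPM in the day-21 mice. Day-0 replicate 1 reached the level of the day-21 mice, so the groups overlapped, while the other two control mice lay well below. This was a log2 fold change of 0.48 (SE 0.18, 95% interval 0.08 to 0.88, adjusted p = 0.049 in edgeR's quasi-likelihood test), below the fold threshold. Without day-0 replicate 1 it was 0.73 and passed the rule for a DEG. With each of the other 5 mice left out it was 0.35 to 0.52, with adjusted p-values of 0.0847 to 0.157 in edgeR, so the adjusted p under 0.05 was lost. An antisense gene, Gm13684, shares 5.9% of the Itgav exon bases but had at most 4 counts in any library.

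Itgb1 encodes β1, the beta chain of most matrix receptors, including αvβ1 and the collagen and laminin receptors. It lies at chr8:128685654-128733200 on the plus strand. It had 357, 298 and 395 CPM on day 0 and 561, 489 and 595 CPM on day 21. The lowest day-21 mouse was above the highest day-0 mouse. The difference on the log2 scale was 0.65 (SE 0.13, 95% interval 0.35 to 0.95, adjusted p = 0.0029, edgeR). Without day-0 replicate 2 it was 0.54, under the fold threshold.

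Itgb5 encodes β5, a vitronectin receptor chain that pairs with αv alone, and lies at chr16:33829665-33949338 on the plus strand. It had 136, 147 and 133 CPM on day 0, and 193, 232 and 230 CPM on day 21. The control mice lay close together and all 3 day-21 mice were above them. The log2 fold change of Itgb5 was 0.65 (SE 0.11, 95% interval 0.40 to 0.91, adjusted p = 0.001, edgeR), and it was called higher under each of 15 alternative scalings, filters, tools and left-out mice, with values of 0.60 to 1.05.

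Itgb1 and Itgb5 rose by nearly the same amount, so the 250 bases before the start of each gene are shown from RefSeq (GRCm38.p6), 5′ to 3′ on the plus strand, with capitals marking matches to 2 motifs. The motifs searched on both strands were the GC box bound by Sp1 (GGGCGG), the AP-1 site (TGANTCA) and the core of the site bound by TEAD factors (GGAATG).
Itgb1, chr8:128685404-128685653: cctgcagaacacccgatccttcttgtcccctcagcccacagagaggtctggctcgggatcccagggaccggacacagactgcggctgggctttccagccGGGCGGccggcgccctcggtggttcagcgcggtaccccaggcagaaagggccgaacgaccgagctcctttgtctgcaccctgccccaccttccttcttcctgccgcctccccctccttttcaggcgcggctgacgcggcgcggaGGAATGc
Itgb5, chr16:33829415-33829664: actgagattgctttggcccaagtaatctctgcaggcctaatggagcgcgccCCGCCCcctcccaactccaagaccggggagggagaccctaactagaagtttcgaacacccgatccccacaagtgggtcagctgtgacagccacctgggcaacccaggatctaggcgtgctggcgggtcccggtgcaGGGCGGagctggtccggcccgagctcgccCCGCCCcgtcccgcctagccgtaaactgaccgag
The Itgb1 stretch held 1 GC box and 1 TEAD match, and the Itgb5 stretch held 3 GC boxes, of which those read CCGCCC are on the minus strand. Promoters of 7 of the 10 members were found, as windows of 300 bases around a RefSeq start. They came to 9 promoters, since Itgb6 and Itga3 have more than 1. The Itgb6 window at chr2:60673644-60673943 and the Itga3 window at chr11:95069149-95069448 lay inside the gene as placed by GENCODE. All 250 bases before the start in the Itgb8 window lay in GENCODE exons of Itgb8 itself. A GC box stood in 6 of the 9 promoters, against 35.6% of all 32817 promoters. An AP-1 match stood in 1 of the 9, against 7.81% of promoters, and a TEAD match in 1, against 14.7%. A match is a run of letters and was not tested as a binding site.

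Itgb3 encodes β3, a beta chain of platelets, osteoclasts and endothelium, at chr11:104608000-104670476 on the plus strand. Its levels were low, with 6.22, 6.43 and 5.46 CPM on day 0 and 8.55, 8.59 and 6.86 CPM on day 21. The groups did not overlap. The log2 fold change of Itgb3 was 0.40 (SE 0.20, 95% interval -0.05 to 0.85, adjusted p = 0.13, edgeR), which missed the threshold. The 6 platelet markers had summed levels of 8.45 to 9.48 CPM on day 0 and 7.66 to 9.40 CPM on day 21, with Gp1bb at 0 in every library and Gp9 at or under the floor. Of the 3 tested, Pf4 rose (0.927 ± 0.197 to 3.11 ± 0.417 CPM, SD, n = 3; adjusted p = 0.0026, edgeR), while Itga2b had 6.28 ± 1.03 and 4.04 ± 1.40 CPM (adjusted p = 0.1, edgeR). Their part in the Itgb3 values was not tested.

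Itgb6 encodes β6, an epithelial chain that pairs with αv alone and activates latent TGF-β. It lies at chr2:60598292-60722643 on the minus strand. It had 103, 77.2 and 85.5 CPM on day 0 and 116, 105 and 107 CPM on day 21. All 3 day-21 mice were above the control mice, by a narrow margin. Its log2 fold change was 0.31 (SE 0.12, 95% interval 0.03 to 0.59, adjusted p = 0.065, edgeR).

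Itgb8 encodes β8, which like β6 activates latent TGF-β with αv, and lies at chr12:119158022-119238802 on the minus strand. It was the only member that fell. It had 382, 243 and 319 CPM on day 0, and 163, 104 and 132 CPM on day 21. The highest day-21 mouse was well below the lowest day-0 mouse. For Itgb8 the log2 fold change was -1.24 (SE 0.20, 95% interval -1.68 to -0.81, adjusted p = 0.00054, edgeR), and 6.37% of all genes tested had a smaller value. Itgb8 was called lower under each of the same 15 alternatives, with values of -1.41 to -0.86.

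The proximal tubule markers fell in the same mice as Itgb8, so its counts per kb of exon were also set against each of the 6 within each library. Itgb8 per Slc34a1, the phosphate transporter of the proximal tubule brush border, was 0.0281 ± 0.00920 (SD, n = 3) on day 0 and 0.0640 ± 0.0140 on day 21, which was 2.33-fold higher. Per Lrp2, which encodes megalin, the ratio was 2.20-fold higher, per Slc22a6, an organic anion transporter, 1.85-fold higher, per Cubn, which encodes cubilin, 1.59-fold higher, and per Slc5a2, a glucose transporter, 1.38-fold higher. Per Slc5a12, a lactate transporter, it was 0.333, 0.354 and 0.333 in the controls, as against 0.413, 0.374 and 0.361 after treatment, which was 1.12-fold higher. The groups did not overlap for Slc34a1, Lrp2, Cubn and Slc5a12, each with an exact two-sided permutation p = 0.1, the smallest that 3 against 3 allows, and 0.186 after Benjamini-Hochberg adjustment over the 13 ratios computed. They overlapped for Slc22a6 (exact permutation p = 0.2) and Slc5a2 (exact permutation p = 0.3). On average the ratio was higher on day 21 for each of the 6 markers, and by the least for Slc5a12. The part of a loss of proximal tubule RNA in the fall of Itgb8 was not tested. The ratios were chosen after the values were seen.

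Of the 5 genes whose profiles over the 6 mice lay nearest to that of Itgb8, by Euclidean distance between centred log2 CPM profiles among 13141 genes, the second was Slc5a12, also on the marker list, at a distance of 0.26. The others were Gm26616 at 0.22, Shank3 at 0.26, Ppargc1b at 0.27 and B4galnt3 at 0.28.

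Since β1, β3, β5, β6 and β8 can all pair with αv, the mRNA of each was expressed as a share of their summed counts per kb of merged exon in each mouse. These shares do not depend on scaling between libraries. The Itgb8 share was 19.7%, 14.8% and 16.4% in the controls, as against 6.58%, 4.46% and 5.01% on day 21. The groups were far apart. The Itgb1 share was 51.3% ± 3.22 (SD, n = 3) on day 0 and 59.7% ± 2.51 on day 21, again with no overlap. For both shares the exact two-sided permutation p was 0.1, the smallest possible here, and 0.25 after adjustment over the 5 shares. The 5 shares of a mouse add up to the whole, so a lower Itgb8 share raises the sum of the others.

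The Itgb5 share was 23.7% ± 3.74 (SD, n = 3) and 27.4% ± 3.41 (exact permutation p = 0.3), and the groups overlapped. Itgb6 held 7.45% ± 0.691 and 6.88% ± 0.494 (n = 3, exact permutation p = 0.4). Itgb3 held 0.620% ± 0.106 on day 0 and 0.608% ± 0.107 on day 21, within the spread between mice. With Itgb1 left out of the sum, since β1 also pairs with many other alpha chains, the Itgb8 share differed by -21.5 percentage points between the groups, the Itgb5 share by 19.4 and the Itgb6 share by 1.81, so that the direction for Itgb6 turned.

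**Figure D2:**
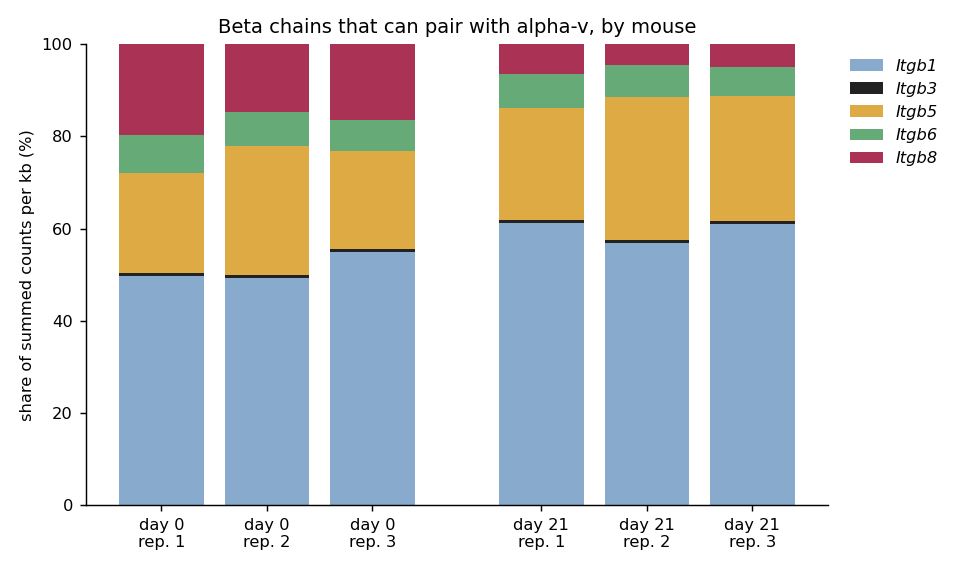
Stacked bars, 1 per mouse, of the share (%) of Itgb1, Itgb3, Itgb5, Itgb6 and Itgb8 in their summed counts per kb of merged exon. The Itgb8 segment takes 14.8% to 19.7% in the controls and 4.46% to 6.58% on day 21.

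Within each library, the ratio of Itgb6 to Itgb8 counts per kb was 0.417, 0.495 and 0.417 on day 0, and 1.11, 1.58 and 1.26 on day 21. On the per-kb scale Itgb8 was thus the higher of the pair in every control mouse and Itgb6 in every day-21 mouse. The ratio was 2.95-fold higher on day 21 (exact permutation p = 0.1, n = 3 per group). Itgb8 per Itgav was 1.71 ± 0.297 (SD, n = 3) on day 0 and 0.510 ± 0.12 on day 21, which was 3.39-fold lower (exact permutation p = 0.1). By contrast, the ratios of Itgb5, Itgb1 and Itgb6 to Itgav overlapped between the groups, with exact permutation p-values of 0.9, 0.7 and 0.3.

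Among the laminin receptor chains, Itga3 encodes α3, the partner of β1 on podocytes and collecting duct cells. It lies at chr11:95044474-95076801 on the minus strand and had 75.7, 82.1 and 102 CPM on day 0 and 113, 140 and 126 CPM on day 21. The groups did not overlap. For Itga3 the log2 fold change was 0.55 (SE 0.14, 95% interval 0.24 to 0.85, adjusted p = 0.0083, edgeR), which stayed below the fold threshold. It passed that threshold at 0.66 without day-0 replicate 3 and at 0.62 without day-21 replicate 1. Of the 4 podocyte markers 3 fell, and 3 of the 4 collecting duct markers fell, while the Itga3 values of all 3 day-21 mice were above those of the controls.

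Itga6 encodes α6, which pairs with β1 or β4, at chr2:71745616-71858416 on the plus strand. It had 254, 135 and 133 CPM on day 0 and 171, 169 and 148 CPM on day 21. Day-0 replicate 1, which was also the highest control mouse for Itgav, was above every day-21 mouse, and the other two control mice were below them all. For Itga6 the log2 fold change was -0.10 (SE 0.22, 95% interval -0.59 to 0.40, adjusted p = 0.76, edgeR), and it was 0.26 without day-0 replicate 1 and 0.29 with scaling by library size alone.

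Itgb4 encodes β4, the hemidesmosomal chain, at chr11:115974709-116008412 on the plus strand. Its counts were 63, 91 and 78 in the controls, as against 276, 460 and 359 after treatment. Normalized, these were 6.32, 7.50 and 8.04 CPM on day 0 and 19.5, 27.4 and 22.0 CPM on day 21. The lowest day-21 mouse was more than double the highest control mouse. The log2 fold change was 1.66 (SE 0.18, 95% interval 1.25 to 2.06, adjusted p = 5.2e-05, edgeR), and 8.28% of all genes tested had a larger one. Itgb4 was called higher under each of the same 15 alternatives, with values of 1.51 to 2.05.

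An antisense gene, B230344G16Rik, shares 7.66% of the Itgb4 exon bases. Its counts were 6, 17 and 8 in the controls, as against 36, 49 and 32 after treatment, with a log2 fold change of 1.36 (adjusted p = 0.02, edgeR). Whether the counting used strand is not given in the sources used here, and without strand the reads of the pair cannot be told apart. Its counts were at most 49, beside 276 or more for Itgb4 in the same libraries.

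The products of Itgb4 and Itga6 make 1 receptor, so the ratio of their mRNAs was followed within each library. Itgb4 per Itga6, in counts per kb, was 0.0320, 0.0714 and 0.0780 on day 0, and 0.146, 0.209 and 0.191 on day 21. The ratio was 3.20-fold higher on day 21, with no overlap (exact permutation p = 0.1, n = 3 per group). Itga3 per Itga6 was 0.882 ± 0.378 (SD, n = 3) and 1.23 ± 0.168, with overlap (exact permutation p = 0.2).

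The tissues in which hemidesmosomes are typical are urothelium and stratified epithelium, and of the 7 markers of urothelium and basal epithelium none was a DEG in the higher direction and 1, Upk1a, was lower in edgeR. Krt14, a keratin of basal cells, was higher at an unadjusted p under 0.05 only, with a log2 fold change of 1.19 (adjusted p = 0.081, edgeR). The Krt14 values of the 2 groups did not overlap. The summed level of the 7 markers was 6.32 to 23.8 CPM in the controls and 8.95 to 13.6 CPM on day 21, so the sums overlapped. The injured tubule markers were higher in the same mice. The part of either kind of cell in the Itgb4 result was not tested. The 5 nearest profiles to Itgb4 were those of Arrb2, Tmsb4x, Bbc3, Bcam and Chst12, at distances of 0.17 to 0.21. Bcam encodes a laminin receptor of the immunoglobulin superfamily and had a log2 fold change of 1.68.

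**Figure D3:**
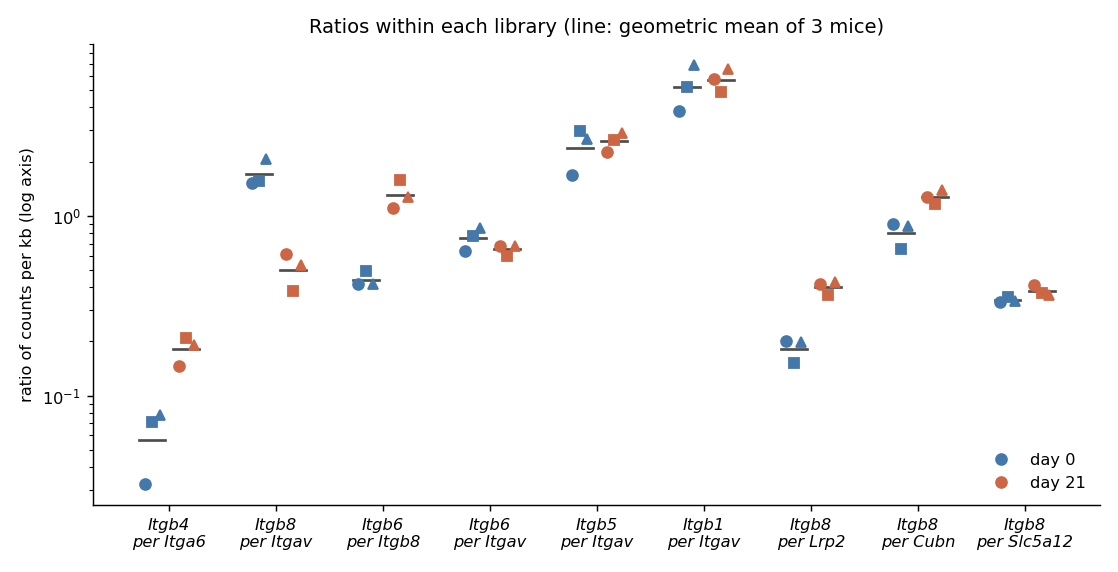
Ratios of counts per kb between pairs of genes within each library (log y axis), for 3 day-0 mice (blue) and 3 day-21 mice (orange; circle, square and triangle are replicates 1 to 3), with the geometric mean as a line. Itgb4 per Itga6, Itgb6 per Itgb8 and Itgb8 per Itgav separate the groups, and Itgb5, Itgb1 and Itgb6 per Itgav do not.

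Itga2 encodes α2, the collagen receptor chain that pairs with β1, at chr13:114833081-114932100 on the minus strand. It was the lowest member, with 18, 33 and 60 counts in the controls, as against 55, 57 and 64 after treatment. These correspond to 1.80, 2.72 and 6.18 CPM, and to 3.89, 3.40 and 3.92 CPM. The control mice spread more widely than the day-21 mice and enclosed them. The log2 fold change of Itga2 was 0.07 (SE 0.40, 95% interval -0.82 to 0.97, adjusted p = 0.9, edgeR), so a change of up to about the size seen in Itgb1 was not detectable in either direction at this depth and spread.

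Per kb of merged exon, Itgb1 was the most abundant member on day 0 at 85.8 ± 12.0 CPM per kb (SD, n = 3), followed by Itgb5 at 39.1 ± 2.17 and Itgb8 at 28.5 ± 6.33. The next, Itga6, Itgav and Itga3, had 19.3, 17.0 and 15.2 CPM per kb and overlapped with their neighbours, and Itgb6 had 12.4. Itgb4, Itgb3 and Itga2 were far below, at 1.04, 1.02 and 0.50 CPM per kb, and the first pair overlapped. On day 21 Itgb1 stood at 134 ± 13.3 and Itgb5 at 61.5 ± 6.23, and Itgb8 came behind Itgav (23.7), Itga3 (22.1), Itga6 (18.0) and Itgb6 (15.4) at 12.0 ± 2.68 CPM per kb. Among the day-21 mice only Itgav and Itga3 overlapped as neighbours in that order. With the longest transcript as the length, Itga6 took the third place on both days.

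Of the other integrin chains, 9 of 10 were tested, and 4 rose and none fell, beside 19.6% and 15.5% of all genes tested. The 4 that rose were Itga4 (2.84-fold), Itga5 (2.28-fold), Itga9 (2.23-fold) and Itgb7 (1.93-fold). Itga5 is the fibronectin receptor chain that pairs with β1. The median log2 fold change of this list was 0.55. Itga11, a fibroblast collagen receptor chain, did not pass the filter, with 2 counts over the day-0 libraries and 43 over the day-21 libraries. Both day-0 counts came from replicate 2. The ratio was 14.5 (95% counting interval 3.77 to 123, which leaves out the spread between mice). Of the 6 leukocyte chains tested, 4 rose, beside the same 19.6% of all genes. The median log2 fold change of the 6 was 1.97. The 4 that rose had log2 fold changes of 4.25 (Itgam), 2.83 (Itgax), 2.38 (Itgb2) and 1.55 (Itgal). In the same libraries the 6 macrophage markers all rose, from summed levels of 120 to 150 CPM to 572 to 690 CPM, and the 5 T cell markers rose from 3.21 to 8.74 CPM to 21.6 to 24.0 CPM. Itgb4, at a log2 fold change of 1.66, lay above Itgal, and the other 9 members lay below all 4 of these leukocyte chains. The part of added leukocytes in the members' values was not tested.

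**Figure D4:**
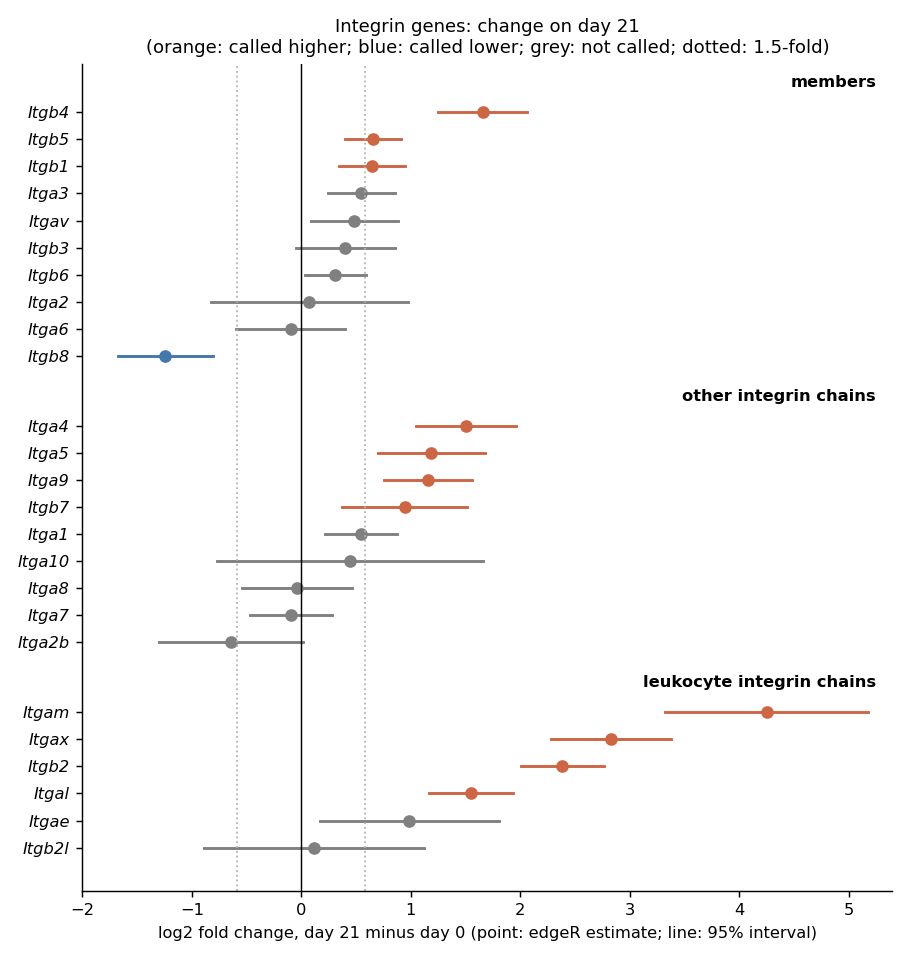
Log2 fold change on day 21 against day 0 (x axis; point, edgeR estimate; line, 95% interval) of the 10 members, 9 other integrin chains and 6 leukocyte chains, with dotted lines at a fold of 1.5 in each direction. Itgb8 is the only integrin chain called lower, and Itgam, at 4.25, lies farthest to the right.

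Many ligands of the αv receptors rose. Of 14 matrix ligands tested, 9 were higher on day 21 and none lower, beside 19.6% and 15.5% of all genes tested. The median log2 fold change of the 14 was 1.71. Neither these ligands nor the other lists given with none lower had a gene that was lower at an unadjusted p under 0.05 in edgeR, and of those lists only the laminin chains had 1 lower in DESeq2. Spp1, which encodes osteopontin, went from 959 ± 579 to 18775 ± 2112 CPM (SD, n = 3; log2 fold change 4.29, adjusted p = 1.6e-05, edgeR). On the log2 scale Thbs2, which encodes thrombospondin 2, rose by 3.04 and Fn1, which encodes fibronectin, by 3.02. Vtn and Ibsp were too low to be tested. The 6 fibroblast and myofibroblast markers, of which Col1a1 is also on the collagen list below, all rose, from summed levels of 199 to 247 CPM to 534 to 856 CPM. Their part in these changes was not tested.

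Of the 9 genes for TGF-β, the proteins that hold it latent and members of their families, 6 rose and none fell. Of all genes tested, 19.6% were higher and 15.5% lower. The median log2 fold change of the 9 was 1.28. Ltbp2, a latent TGF-β binding protein family member of the microfibrils, went from 9 counts over the day-0 libraries to 1397 over the day-21 libraries. The ratio was 105 (95% counting interval 54.9 to 229, which leaves out the spread between mice). On the log2 scale Tgfb2 rose by 3.23 and Nrros, which tethers latent TGF-β1 on macrophages, by 1.48. Tgfb1, chosen for mention after the values were seen because its latency peptide is the classic ligand of αvβ6 and αvβ8, went from 20.1 ± 3.54 to 50.9 ± 4.61 CPM (SD, n = 3; log2 fold change 1.35, adjusted p = 5.3e-05, edgeR). Of 8 TGF-β response genes, 4 rose and none fell, beside the same shares of all genes, with a median log2 fold change of 0.97. Among these 4 were Ltbp2, which stood on both lists, Tgfbi (1.84) and Pmepa1 (1.36).

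Laminins are the ligands of the α3 and α6 receptors. Of 11 laminin chains tested, 2 rose and none fell, beside 19.6% of all genes tested that were higher, with a median of 0.41. Lamb1, which encodes the β1 chain of laminin, went from 168 ± 12.4 to 328 ± 14.0 CPM (SD, n = 3; log2 fold change 0.97, adjusted p = 5.3e-05, edgeR). Lama3 and Lamb3, named after their values were seen, did not pass the test, with log2 fold changes of -0.44 (adjusted p = 0.11, edgeR) and 0.66 (adjusted p = 0.31, edgeR). The count of laminin chains that rose was 5 without day-0 replicate 3 and 4 without day-21 replicate 2.

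Of 11 collagen chains that are ligands or basement membrane partners, 7 rose and 2 fell, beside 19.6% and 15.5% of all genes tested. The median log2 fold change of the 11 was 1.33. Col1a1 (4.35), Col3a1 (4.03) and Col1a2 (2.90) rose most. The 2 that fell, Col4a3 (-1.09) and Col4a4 (-0.97), encode chains of the mature glomerular and tubular basement membrane, whereas Col4a1 (1.33) and Col4a2 (1.26) rose.

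Of the 8 partners of α6β4 in the hemidesmosome and the tetraspanins that ride with laminin receptors, 2 rose and 1 fell. Of all genes tested, 19.6% were higher and 15.5% lower. The median log2 fold change of the 8 was 0.32. Col17a1, which encodes a transmembrane collagen of hemidesmosomes, had 3 counts over the day-0 libraries and 178 over the day-21 libraries. The ratio was 40.0 (95% counting interval 13.5 to 196, which leaves out the spread between mice). Cd9 rose by 1.22 on the log2 scale. Dst, whose epithelial isoform links α6β4 to keratin, fell by 1.27 on that scale, and the gene counts do not separate its isoforms. Plec and Cd151, named after their values were seen, had log2 fold changes of 0.13 (adjusted p = 0.6, edgeR) and 0.52 (adjusted p = 0.0036, edgeR, under the fold threshold).

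Inside the cell, 26 activators and linkers that bind integrin tails or the actin attached to them had a median of 0.00 rounded. Of these, 4 were higher and 4 lower, beside 19.6% and 15.5% of all genes tested. Without the fold threshold, 11 of the 26 had an adjusted p under 0.05 in edgeR, beside 45.6% of all genes. On the log2 scale Fermt3, the kindlin of blood cells, rose by 2.18 and Flna, which encodes filamin A, by 1.20. Kank2 rose by 0.91 and Fermt1, the epithelial kindlin, by 0.64. The log2 fold changes of those that fell were -1.23 for Tln2, which encodes talin 2, -0.86 for Tns1, -0.85 for Tns2 and -0.62 for Dab2, an endocytic adaptor of the proximal tubule that binds beta tails. Tln1, Ilk, Ptk2 and Pxn, named after their values were seen, were not among the DEGs.

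**Figure D5:**
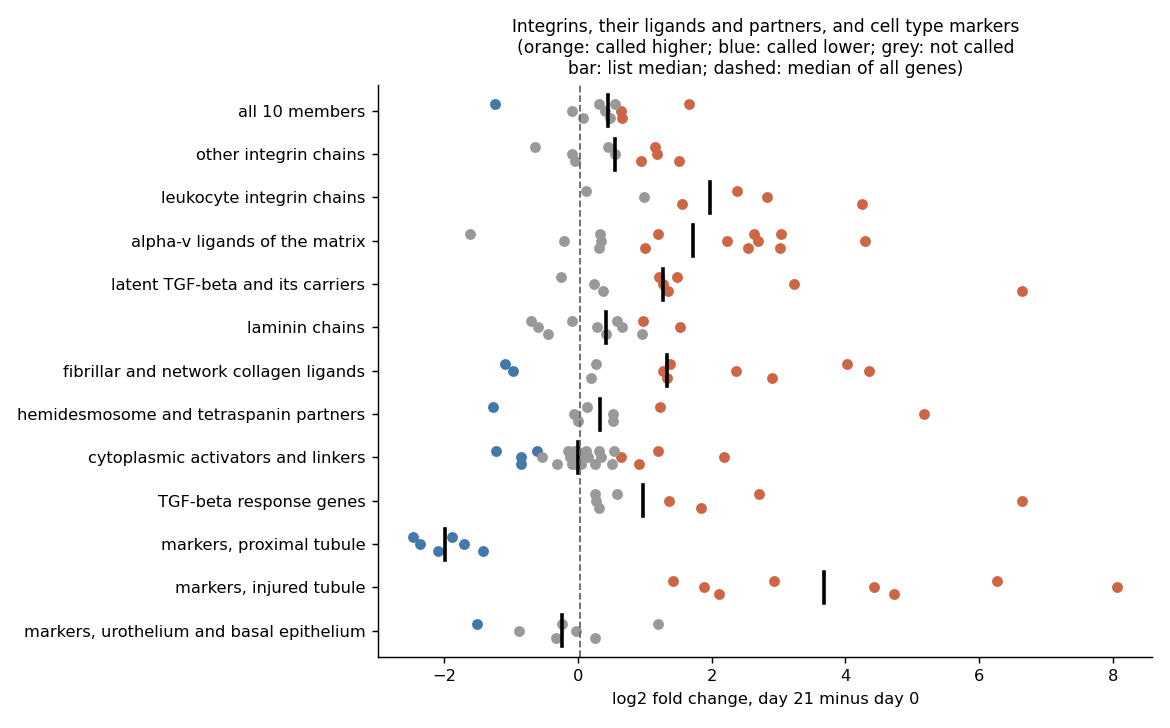
Log2 fold changes on day 21 against day 0 (x axis) of the genes tested in each list (rows), with the list median as a bar and the median of all genes tested, 0.03, as a dashed line. The members have a median of 0.44, the αv matrix ligands 1.71, the proximal tubule markers -1.99 and the injured tubule markers 3.68.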

How the data were processed

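Total RNA of whole kidney was extracted with TRIzol and sequenced as paired reads of 150 bases (TruSeq libraries). The authors deposited raw read counts per gene; the submitters' processing notes name TopHat and mm10, and the counting program and strand setting are not given in the sources used here. The 55450 gene IDs matched GENCODE mouse release 21 (GRCm38), which gave symbols, exon lengths and positions; 28536 genes had no count in any library. Every column of counts was assigned to a mouse by its title. Totals were 10963849 to 14333311 counts per library, and counting intervals and floors (3 counts) cover counting error only. Replicate libraries of a group differed beyond sampling noise (chi-square per gene 7.17 to 25.7), and no pair was a repeat of 1 library. Nothing in the labels beyond the sample names describes the mice as separate litters or cages, so p-values measure the spread between these samples.

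The counts were filtered (filterByExpr, minimum count 10, minimum total 15), scaled by TMM and tested with edgeR 4.0.16 (glmQLFit, glmQLFTest; R 4.3.3), day 21 against day 0, 3 mice each, with Benjamini-Hochberg adjustment over 16592 genes. The biological coefficient of variation was 16.2%. CPM values were computed from TMM-scaled sizes. Levels per kb used merged exon lengths, since levels of genes differ with length. Exact two-sided permutation tests (scipy 1.17.1) were used for shares and ratios. On simulated counts for 16259 genes with 200 genes changed 3-fold, edgeR called 172 of them and 17 others; DESeq2 1.42.0 called 176 and 21, and limma-voom (limma 3.58.1) 168 and 15.

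The members, the lists (other and leukocyte integrin chains, αv matrix ligands, latent TGF-β and carriers, laminins, collagens, hemidesmosome and tetraspanin partners, linkers, TGF-β response genes, and markers of 12 cell types or states) and the tests were chosen with earlier results of these data known. Each list is described by its counts and median. All members were named; of each list that is no marker list, at most 3 DEGs in each direction, by size of change, and any gene of a count of 5 or fewer were named, except genes that are not reported here; and for the member with the largest rise and with the largest fall, the 5 nearest profiles among genes with a mean of at least 50 counts. Of the marker lists that the results do not give, thick limb and distal tubule had 3 of 4 lower, endothelium 1 of 5 lower, and smooth muscle 2 of 4 higher and 1 lower. Alternatives were other scalings, filters, tools and thresholds, a replicate block, removal of mitochondrial genes, and each mouse left out.

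Replicate numbers are shared between the groups. Deviations of same-numbered mice from their group means correlated at -0.03, 0.17 and 0.10, so the numbers were not taken to pair the mice. Promoters came from a RefSeq table (GRCm38.p6); 7 of 10 members had an entry.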

Additional observations from a re-analysis of the deposited data

How the results depend on the processing

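Itgb4, Itgb5 and Itgb8 kept their direction and call under each of 15 alternative scalings, filters, tools and left-out mice. Scaling by library size alone gave 5985 genes higher and 1338 lower, 7 members higher in place of 3 (with Itgav at 0.87, Itgb3 at 0.79, Itgb6 at 0.70 and Itga3 at 0.94), 6 laminin chains, 4 hemidesmosome partners, 9 linkers and 8 TGF-β response genes higher, and 1 linker and 1 collagen lower, with the median of all genes at 0.42; Itga6 then had 0.29. At a stricter threshold (fold over 2, adjusted p under 0.01) 1918 genes were higher and 1254 lower, 1 member, 1 laminin chain and 2 linkers were higher, and 1 collagen and 1 linker lower. At any fold 5 members and 4 hemidesmosome partners were higher. Upper quartile scaling called Itga3 (0.64) and gave 4 hemidesmosome partners higher, and a mean of at least 50 counts gave 1, since Col17a1 was then not tested. With no filter 4 laminin chains were higher, 2 lower, and 1 αv ligand was lower; DESeq2 called 1 laminin chain lower. The causes of the other moves were not tested.

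Leaving out 1 mouse at a time gave log2 fold changes of -0.27 to 0.26 for Itga6, -0.25 to 0.69 for Itga2 and -0.00575 to 0.39 for Plec, 2 to 5 laminin chains higher, 0 to 1 lower, and 0 to 1 other integrin chain lower. Itgb1 fell under the fold threshold without day-0 replicate 2 (0.54), and Itgav passed it without day-0 replicate 1 (0.73) but lost its adjusted p under 0.05 without any 1 of the other 5 mice and with RLE scaling (adjusted p = 0.057, edgeR). The Itgb3 share differed by -0.01 percentage points in the result given, by 0.0040 with the longest transcript as the length, by 0.238 without Itgb1 in the sum, and by -0.0587 to 0.0487 with a mouse left out. Without Itgb1 the differences were 19.4 points for Itgb5, 1.81 for Itgb6 and -21.5 for Itgb8.

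With the replicate number as a block, 3235 genes were higher and 2523 lower, and the same number of members was called, 3 higher and 1 lower; 1 αv ligand and 1 laminin chain became lower, and 3 laminin chains were higher. The mice share only a number, and same-numbered mice did not each correlate best with their own number. Itga2 and Itgb3 rest on few counts, 18 to 64 and 53 to 144 per library.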
